A study of Mus musculus with 18 samples.

Results

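The E2F and retinoblastoma family was followed over 10 genes, 7 E2F transcription factors (E2f1, E2f2, E2f3, E2f4, E2f6, E2f7 and E2f8) and the pocket protein genes Rb1, Rbl1 and Rbl2, out of 30176 genes with a row of their own on the arrays. A gene was represented by its brightest transcript cluster, a set of probes that follows 1 transcribed locus, among the clusters annotated with that symbol alone. The choice used annotation and mean brightness and no difference between groups.

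The cells were M12-5B3, a mouse B lymphoma line that lacks functional p53 and carries tetracycline-regulated RAG transgenes, which were kept silent. USFKD cells had received lentiviral shRNAs against both Usf1 and Usf2, which encode the E-box binding factors USF1 and USF2, and Control cells a scrambled shRNA, and both had been selected with puromycin. RNA was measured in untreated cells and 24 hr and 7 day after a single dose of 5 Gy of ionizing radiation, so that both lines had an untreated, a 24 hr and a 7 day group of 3 arrays, 18 arrays in all. Untreated cells formed 1 group per line, so the effect of irradiation and that of time in culture cannot be told apart. The comparison of USFKD with Control rests on 1 pair of selected lines, and the sources used here call the 3 replicates independent without saying whether they were separate clones or cultures. The p-values therefore measure the spread between these samples.

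E2F proteins bind promoters of genes for DNA replication and mitosis, most of them as dimers with a DP partner. E2F1, E2F2 and E2F3 activate transcription and are held inactive by the retinoblastoma protein RB1 until cyclin-dependent kinases phosphorylate it in late G1. E2F4 acts mainly with RBL1 (p107) and RBL2 (p130), and with the MuvB core forms the DREAM complex that silences cell cycle genes in resting cells. E2F6 represses without a pocket protein as part of a Polycomb complex, and the atypical E2F7 and E2F8 repress G1/S genes late in the cycle without a DP partner. Several family genes are themselves E2F targets.

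Promoter sequences of the family are shown because several of these genes carry the site that the family itself reads, or the E-box that USF reads. RefSeq windows of 300 bases on GRCm38.p6, 250 bases before the transcription start and 50 after it, were given for 8 of the 10 genes and came to 10 windows. E2f4 and Rb1 had none. An E2F motif (TTTCCCGC, TTTCGCGC, TTTGCCGC or TTTGGCGC on either strand) lay in a window of 4 of the 8 genes, E2f2, E2f3, E2f7 and Rbl1, and in 2.26% of 32851 mouse promoter windows. The E-box CACGTG lay in a window of 1 gene, E2f3, and in 7.15% of all windows, and the CHR motif TTTGAA, which DREAM reads, lay in windows of 4 genes (E2f2, E2f3, E2f8 and Rbl2) and in 17.9% of all windows. No window of E2f1 or E2f6 held any of these letters. Genes were counted over all their windows, 2 each for E2f2 and E2f3, whereas the percentages are shares of single windows. The stretches around the E2F matches, the E-box and the CHR match of E2f8 are given 5′ to 3′ on the strand of the gene, with every match in them in capitals. The CHR matches of Rbl2 and of the second start of E2f2 are not shown.
E2f7 (chr10:110745219-110745438, forward strand): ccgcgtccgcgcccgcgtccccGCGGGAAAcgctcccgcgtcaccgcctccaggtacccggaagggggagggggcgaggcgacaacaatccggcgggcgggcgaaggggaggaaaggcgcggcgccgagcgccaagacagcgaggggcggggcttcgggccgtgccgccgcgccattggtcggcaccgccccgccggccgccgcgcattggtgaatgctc
E2f3 first start (chr13:29986064-29986143, reverse strand): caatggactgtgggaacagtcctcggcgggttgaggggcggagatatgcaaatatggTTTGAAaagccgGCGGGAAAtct
Rbl1 (chr2:157204535-157204614, reverse strand): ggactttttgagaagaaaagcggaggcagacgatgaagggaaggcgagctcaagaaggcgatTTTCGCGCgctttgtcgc
E2f2 first start (chr4:136172303-136172323, forward strand): cggcatatagTTTGGCGCtaa
E2f8 (chr7:48881597-48881676, reverse strand): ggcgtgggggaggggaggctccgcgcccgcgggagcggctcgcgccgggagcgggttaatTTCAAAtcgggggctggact
E2f3 second start (chr13:29984392-29984471, reverse strand): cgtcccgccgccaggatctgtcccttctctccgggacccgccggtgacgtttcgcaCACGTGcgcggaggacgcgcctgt
The E2F match began 198 bases before the start in E2f7, 18 before it in Rbl1, 11 before it at the first start of E2f3 and 40 after the first start of E2f2. At the first start of E2f3 a CHR match began 23 bases before the start, beside the E2F match, and the E-box lay 24 bases before the second start. The CHR match of E2f8 began 20 bases before its start. A match in these letters is no evidence of binding.

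All 18 arrays held a complete set of 72688 log2 values, and the 3 arrays of a group correlated among themselves at Pearson r of 0.986 to 0.994. Usf2 was lower in USFKD than in Control cells at every time, with group means of 6.89, 7.13 and 6.55 in USFKD cells untreated, at 24 hr and at 7 day, against 9.04, 9.08 and 9.94 in Control cells. Usf1 lay between 5.16 and 5.28 in all 6 groups and did not pass the test between the lines at any time (log2 differences of -0.07 untreated, -0.10 at 24 hr and -0.11 at 7 day), so on these arrays the Usf1 row does not show the knockdown. The 7 measured B cell markers were all bright, while 0 of 6 myeloid, 1 of 6 T cell (Cd5) and 1 of 4 fibroblast markers (Col1a1) lay above the dim limit defined below. The mean of the B cell markers was 11.5 to 11.7 in USFKD and 11.4 to 11.6 in Control arrays at 7 day, against 11.9 to 12.3 in USFKD and 12.4 to 12.5 in Control arrays without irradiation. The 6 arrays of 7 day also stood apart technically: their hybridization spikes averaged 11.4 to 11.8, against 10.6 to 11.1 on the other 12 arrays, and their median cluster was 4.46 to 4.59, against 4.32 to 4.40. Their part in the results at 7 day was not tested, and what sets the 7 day arrays apart and the time itself cannot be told apart.

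All 10 family genes were measured above the dim limit of 4.66, under which 95% of the odorant and pheromone receptor genes lay, genes that B cells are not known to use. Differences are log2 differences with their standard errors, from 1 limma fit over all 18 arrays, and a gene is called where the Benjamini-Hochberg adjusted p is under 0.05 and the fold change over 1.5. Counts of family genes are set beside the percentage of the 15559 genes above the dim limit that were called in the same comparison. Because probes differ in brightness, no level is compared between genes. A lower signal in a whole culture can come from fewer expressing cells or from less RNA per cell, which cannot be told apart.

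At 7 day after irradiation the family was mostly lower in Control cells. There, 6 of the 10 genes fell against untreated cells (E2f2, E2f3, E2f4, E2f7, E2f8 and Rbl1), beside 16.3% of all genes called lower, and Rb1 alone rose, beside 15.2% called higher. In USFKD cells the same comparison called 2 genes, E2f4 and E2f8, both lower, beside 9.13%. The median log2 difference of the 10 genes was -0.39 in USFKD cells, against 0.01 over all genes, and -0.69 in Control cells, against -0.02 over all genes. The scale of the arrays bears on these counts. A further quantile normalization shifted the median of all genes by -0.20 in USFKD and -0.24 in Control cells. After it 5 family genes were lower in USFKD cells (E2f3, E2f6 and E2f7 added), beside 2514 of all 15559 genes called lower, against 1421 on the deposited scale. E2f6 was added in Control cells, beside 4016 genes called lower, against 2540. Only 26.4% of the called genes in USFKD and 26.3% in Control cells were then higher, against 51.8% and 48.2% on the deposited scale. After centring on the genes above the dim limit these shares were 60.1% in USFKD and 62.8% in Control cells, and E2f2 (-0.56) and Rbl1 (-0.53) were no longer called in Control cells.

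**Figure D1:**
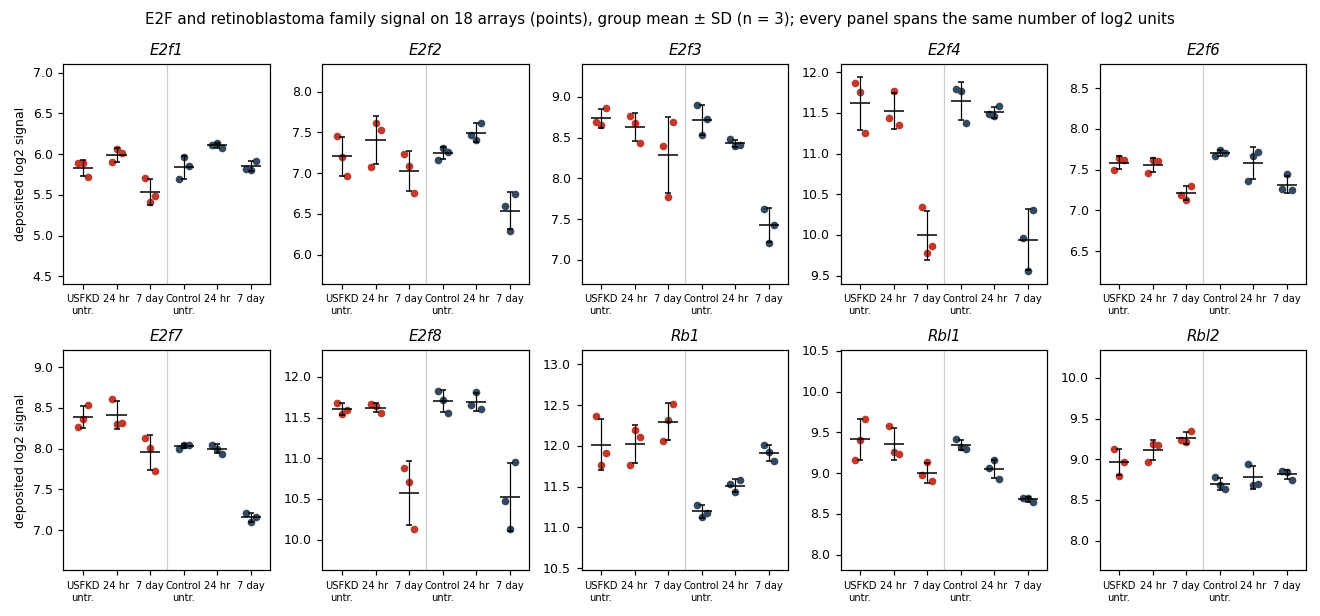
Deposited log2 signal (vertical axis) of the 10 family genes on each of the 18 arrays, with USFKD arrays in red on the left and Control arrays in blue on the right of each panel, untreated, 24 hr and 7 day, and the group mean ± SD (n = 3). All 6 arrays of 7 day lie below the other 12 for E2f4 and E2f8, while for E2f3 and E2f7 the 3 Control arrays of 7 day lie below all others.

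Among the activators, E2f3 changed most. Its row gave 8.69, 8.65 and 8.87 in untreated USFKD cells, 8.77, 8.68 and 8.44 at 24 hr and 8.40, 7.77 and 8.69 at 7 day. In Control cells it gave 8.90, 8.53 and 8.73 untreated, 8.48, 8.40 and 8.41 at 24 hr and 7.63, 7.21 and 7.43 at 7 day. The 3 Control arrays of 7 day were thus below every other array, and the other 5 groups overlapped from neighbour to neighbour in order of their means. Separate groups of 3 arrays were common here: of all genes above the dim limit, 48.6% in USFKD and 68.8% in Control cells had no overlap between 7 day and untreated arrays. The fall in Control cells was -1.30 ± 0.18, or 2.46-fold (limma, adjusted p = 9.54e-05). In USFKD cells the difference was -0.45 ± 0.18 (95% interval -0.84 to -0.05, limma adjusted p = 0.116). It was called with array weights (-0.59, limma adjusted p = 0.0453), after quantile normalization (-0.66, limma adjusted p = 0.0173) and without USFKD 7 day replicate 3 (-0.65, limma adjusted p = 0.0249). At 7 day E2f3 was therefore higher in USFKD than in Control cells, by 0.86 ± 0.18 or 1.82-fold (limma, adjusted p = 0.00641). With only the 6 arrays compared in the fit, the difference of 0.86 did not pass (limma, adjusted p = 0.136).

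The row used for E2f3 is one that the array design does not place on a chromosome. A second E2f3 row, placed on chromosome 13 and dimmer, gave the same picture at 7 day with less scatter. At 24 hr the rows were less alike. USFKD minus Control was then 0.32 on the second row (limma, adjusted p = 0.0465), under the fold threshold, and 0.20 on the brighter row (limma, adjusted p = 0.778). The second row averaged 7.63 ± 0.14 in USFKD and 7.03 ± 0.096 in Control cells at 7 day, against 7.87 ± 0.054 in USFKD and 7.99 ± 0.10 in Control cells without irradiation (SD, n = 3). On this row the fall at 7 day was -0.24 ± 0.09 in USFKD cells (limma, adjusted p = 0.0786) and -0.96 ± 0.09 in Control cells (limma, adjusted p = 1.96e-06). The difference between the lines in that response was 0.73 ± 0.12 on the second row (limma, adjusted p = 0.00883). On the brighter row it was 0.85 ± 0.26 (95% interval 0.29 to 1.41) and did not pass (limma, adjusted p = 0.108). Without USFKD 7 day replicate 2, the array with the lowest E2f3 of its group, it was 1.10 on the brighter row (limma, adjusted p = 0.019).

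E2f2, another activator, fell in Control cells, close to the fold threshold. It gave 7.23, 7.09 and 6.76 at 7 day and 7.45, 7.20 and 6.97 untreated in USFKD cells, against 6.59, 6.29 and 6.74 at 7 day and 7.16, 7.31 and 7.26 untreated in Control cells. At 24 hr it gave 7.07, 7.61 and 7.53 in USFKD and 7.47, 7.40 and 7.62 in Control cells. The Control arrays of 7 day again lay below all others. In Control cells E2f2 fell by 0.70 ± 0.17 (1.63-fold, limma adjusted p = 0.00467), but the call was lost without Control 7 day replicate 2, where the difference was -0.58, and after centring, where it was -0.56. In USFKD cells the difference was -0.18 (95% interval -0.54 to 0.17, limma adjusted p = 0.506). Between the lines at 7 day it was 0.49 (limma, adjusted p = 0.0732), and without USFKD 7 day replicate 3 it was 0.62 (limma, adjusted p = 0.0364).

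E2f1, an activator that can also induce apoptosis, stayed within 5.41 to 6.14 on all arrays. It passed the call in 0 of the 12 comparisons. Its 7 day arrays were 5.71, 5.41 and 5.49 in USFKD cells, a difference from untreated of -0.30 ± 0.09 (limma, adjusted p = 0.041), while in Control cells the difference was 0.01 (95% interval -0.19 to 0.21). At 7 day it differed by -0.31 between USFKD and Control cells (limma, adjusted p = 0.0423). Both differences were under the fold threshold.

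E2f4 and E2f8 fell in both lines. E2f4, the E2F of the DREAM complex, gave 11.86, 11.75 and 11.25 in untreated USFKD cells, 11.44, 11.77 and 11.35 at 24 hr and 10.34, 9.78 and 9.87 at 7 day. In Control cells it gave 11.79, 11.77 and 11.38 untreated, 11.48, 11.46 and 11.58 at 24 hr and 9.96, 9.56 and 10.31 at 7 day. The 6 arrays of 7 day were apart from the other 12 and overlapped each other. The fall was -1.63 ± 0.21 or 3.09-fold in USFKD cells (limma, adjusted p = 1.05e-04) and -1.70 ± 0.21 or 3.25-fold in Control cells (limma, adjusted p = 2.39e-05). Between the lines at 7 day E2f4 differed by 0.05 (95% interval -0.39 to 0.49), and the responses differed by 0.07 (95% interval -0.55 to 0.70), an interval wide enough to hold the fold threshold of 0.585 in one direction.

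E2f8, an atypical repressor, gave 11.68, 11.54 and 11.59 untreated, 11.66, 11.64 and 11.56 at 24 hr and 10.88, 10.71 and 10.13 at 7 day in USFKD cells. In Control cells it gave 11.83, 11.72 and 11.56 untreated, 11.65, 11.81 and 11.60 at 24 hr and 10.48, 10.13 and 10.96 at 7 day. As for E2f4, the 7 day arrays of both lines were below the rest and mixed among themselves. The fall was -1.03 ± 0.19 or 2.04-fold in USFKD cells (limma, adjusted p = 0.00157) and -1.18 ± 0.19 or 2.27-fold in Control cells (limma, adjusted p = 2.71e-04). At 7 day the lines differed by 0.05 (95% interval -0.36 to 0.45). Over the 18 arrays E2f4 and E2f8 were the most alike pair of the family (Pearson r = 0.957, and 0.646 after the group means were removed), which is a description over arrays that share their groups.

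E2f7, the other atypical repressor, was called between the lines at 7 day only. It gave 8.26, 8.37 and 8.53 in untreated USFKD cells, 8.61, 8.30 and 8.32 at 24 hr and 8.13, 8.01 and 7.72 at 7 day. In Control cells it gave 8.0, 8.05 and 8.04 untreated, 8.05, 8.0 and 7.94 at 24 hr and 7.21, 7.10 and 7.16 at 7 day. USFKD and Control arrays did not overlap at any time, which also held for 50.8% of all genes untreated, 41.5% at 24 hr and 43.5% at 7 day. USFKD exceeded Control by 0.36 ± 0.11 untreated (limma, adjusted p = 0.0646), by 0.41 ± 0.11 at 24 hr (limma, adjusted p = 0.0407) and by 0.80 ± 0.11 at 7 day (1.74-fold, limma adjusted p = 2.28e-04), of which only the last was called. The fall at 7 day was -0.44 ± 0.11 in USFKD cells, under the fold threshold (limma, adjusted p = 0.0124), and -0.87 ± 0.11 or 1.83-fold in Control cells (limma, adjusted p = 3.04e-05). These falls differed by 0.44 ± 0.15 and the difference did not pass (limma, adjusted p = 0.162).

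E2f6, the Polycomb-linked repressor, moved by less than the fold threshold in every comparison on the deposited scale. At 7 day against untreated it differed by -0.38 in USFKD cells (limma, adjusted p = 0.0127) and by -0.39 in Control cells (limma, adjusted p = 0.00661). After quantile normalization both were called, at -0.61 in USFKD (limma, adjusted p = 0.00214) and -0.59 in Control cells (limma, adjusted p = 0.00152). USFKD minus Control was -0.12 untreated, -0.02 at 24 hr and -0.11 at 7 day, and none of these passed (limma, adjusted p of 0.67, 0.968 and 0.539).

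**Figure D2:**
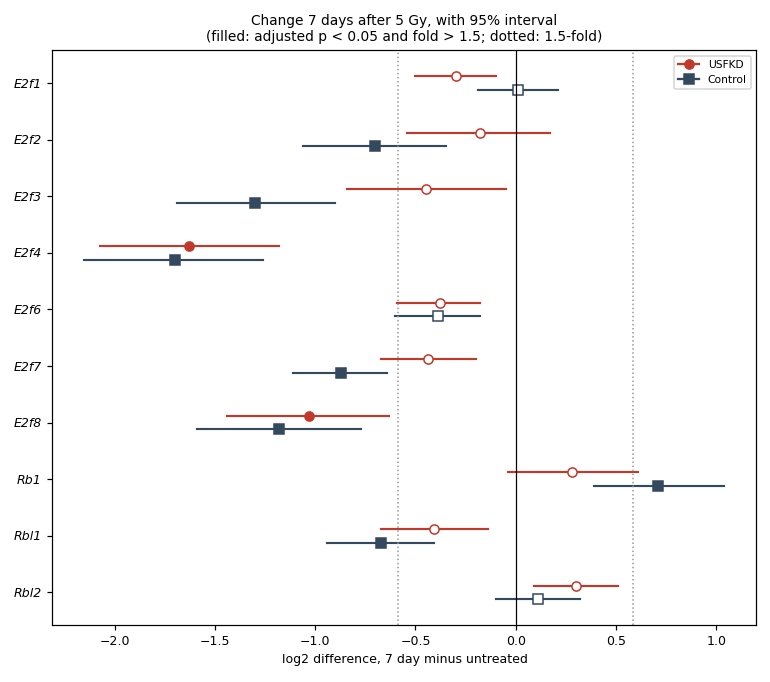
Log2 difference, 7 day minus untreated (horizontal axis), of each family gene in USFKD (red circles) and Control cells (blue squares), with 95% intervals; filled symbols are called. The intervals of the lines nearly coincide for E2f4, E2f6 and E2f8 and lie furthest apart for E2f3, at -0.45 in USFKD and -1.30 in Control cells.

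Of the pocket proteins, Rb1 was the only family gene that was called between untreated lines. It gave 12.37, 11.77 and 11.91 in untreated USFKD cells, 11.76, 12.20 and 12.11 at 24 hr and 12.06, 12.32 and 12.51 at 7 day. In Control cells it gave 11.28, 11.13 and 11.18 untreated, 11.53, 11.43 and 11.58 at 24 hr and 12.01, 11.92 and 11.81 at 7 day. Untreated Control arrays were the lowest of all, Control arrays at 24 hr came next, and the remaining 4 groups overlapped from neighbour to neighbour. USFKD exceeded Control by 0.82 ± 0.15 untreated (1.76-fold, limma adjusted p = 0.00317), by 0.51 at 24 hr (limma, adjusted p = 0.0782) and by 0.39 at 7 day (limma, adjusted p = 0.128). Without USFKD 24 hr replicate 1 the difference at 24 hr was 0.64 and was called (limma, adjusted p = 0.0325). In USFKD cells Rb1 differed by 0.28 at 7 day against untreated (95% interval -0.04 to 0.61, limma adjusted p = 0.239), and it rose by 0.71 ± 0.15 or 1.64-fold in Control cells (limma, adjusted p = 0.00257).

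The 2 other Rb1 rows were near or under the dim limit, with means of 5.06 and 4.48 on all arrays, and neither was called in any comparison. Between untreated lines they differed by 0.21 ± 0.20 and 0.11 ± 0.29. With the mean of all 3 rows in place of the brightest, Rb1 differed by 0.38 between untreated lines (limma, adjusted p = 0.22) and by 0.15 at 7 day in Control cells (limma, adjusted p = 0.487), so both Rb1 calls rest on the bright row.

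Rbl1, which encodes p107, ran the other way from Rb1 in Control cells. It gave 9.16, 9.41 and 9.67 untreated, 9.58, 9.26 and 9.23 at 24 hr and 8.98, 9.14 and 8.90 at 7 day in USFKD cells. In Control cells it gave 9.42, 9.32 and 9.30 untreated, 9.06, 9.16 and 8.93 at 24 hr and 8.69, 8.70 and 8.64 at 7 day. The Control arrays of 7 day were below all other arrays. Rbl1 fell by 0.67 ± 0.12 in Control cells (1.59-fold, limma adjusted p = 7.55e-04), and after centring this difference of -0.53 was under the fold threshold. In USFKD cells the difference was -0.41 (limma, adjusted p = 0.0334), under the threshold as well.

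Rbl2, which encodes p130, lay within 8.63 to 9.35 on all arrays and was not called in any comparison. Its mean was highest in USFKD cells at 7 day, whose arrays gave 9.24, 9.21 and 9.35, against 8.85, 8.84 and 8.75 in Control cells. The difference was 0.46 ± 0.10, or 1.37-fold (limma, adjusted p = 0.00663). Over the 18 arrays Rb1 and Rbl2 had a Pearson r of 0.862 (0.759 after the group means were removed), and Rbl1 had -0.273 with Rb1 and -0.0132 with Rbl2.

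**Figure D3:**
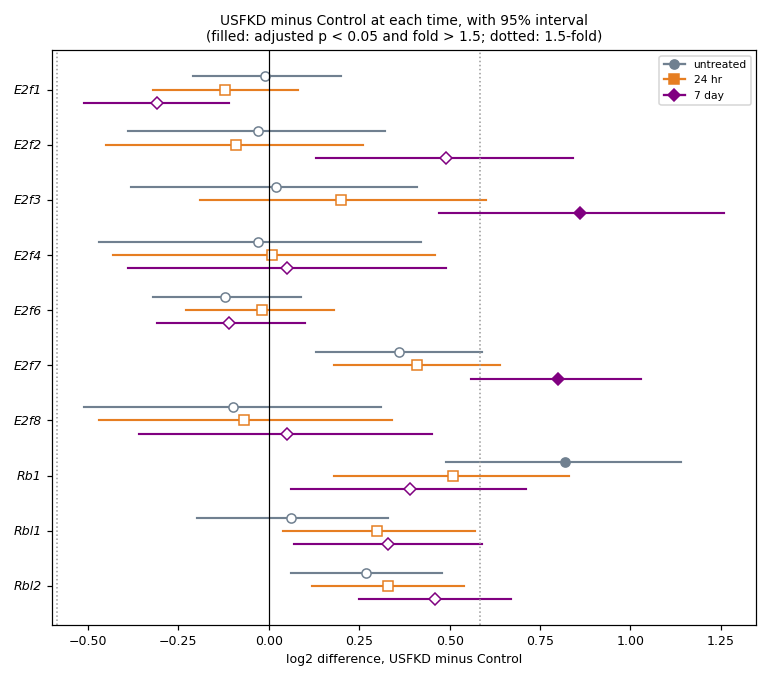
Log2 difference, USFKD minus Control (horizontal axis), of each family gene untreated (grey circles), at 24 hr (orange squares) and at 7 day (purple diamonds), with 95% intervals; filled symbols are called. Rb1 is called only untreated, at 0.82, and E2f3 and E2f7 only at 7 day, at 0.86 and 0.80.

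Set against Control cells, USFKD cells had 1 of the 10 genes called higher and 0 lower without irradiation (Rb1), beside 4.5% of all genes called higher. At 24 hr 0 of the 10 were called by limma, beside 10.3% of all genes called in either direction. An unadjusted limma p under 0.05 was reached there by 4 of the 10 and by 5579 of the 15559 genes above the dim limit. At 7 day 2 were called, both higher (E2f3 and E2f7), beside 7.31% of all genes called higher. The medians of the 10 differences were 0.01 untreated, 0.11 at 24 hr and 0.36 at 7 day, against -0.02, 0.02 and -0.03 over all genes. The 3 comparisons share no arrays with each other.

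The first day after irradiation brought no call. In USFKD cells 0 of the 10 genes were called at 24 hr against untreated, with 0 at an unadjusted p under 0.05, beside 0% of all genes (1113 of 15559 had an unadjusted p under 0.05). In Control cells 0 of the 10 were called, beside 3.16% of all genes. There, 2 of the 10 had an unadjusted limma p under 0.05 (E2f1 at 0.27 and Rbl1 at -0.30), beside 4559 of 15559. Between 24 hr and 7 day 2 genes fell in USFKD cells (E2f4 at -1.52 and E2f8 at -1.05), beside 10.9% of all genes called lower, and 5 fell in Control cells, beside 12.4% (E2f2 at -0.96, E2f3 at -1.01, E2f4 at -1.56, E2f7 at -0.84 and E2f8 at -1.16). Rbl1, which fell over the 7 days in Control cells, was called in neither interval, at -0.30 by 24 hr and -0.38 after it. These comparisons use the same 7 day arrays as those against untreated cells and are not independent of them.

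No family gene's own row passed the test of a difference between the lines in the response. That test called 0 of the 10 genes at 24 hr, beside 0% of all genes, and 0 at 7 day, beside 5.56%. For the change between 24 hr and 7 day it called 0, beside 0.758%. At an unadjusted limma p under 0.05 there were 0 of the 10 at 24 hr, beside 1839 of 15559 genes. At 7 day there were 4, beside 4704, and for the change between 24 hr and 7 day 3, beside 2942. E2f2, E2f3, E2f7, Rb1 and Rbl1 were called in Control and not in USFKD cells at 7 day. For none of them did the difference between the lines pass this test, apart from the second row of E2f3. The largest differences in response after E2f3 were 0.52 for E2f2 (limma, adjusted p = 0.275), 0.44 for E2f7 and -0.43 for Rb1 (limma, adjusted p = 0.339).

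The 4 genes with an E2F motif in a promoter window, E2f2, E2f3, E2f7 and Rbl1, were all among the 6 that fell in Control cells at 7 day, at -0.70, -1.30, -0.87 and -0.67. In USFKD cells their differences were -0.18, -0.45, -0.44 and -0.41, and none was called. Of the other genes with a window, E2f8 fell in both lines without that motif, and E2f1, E2f6 and Rbl2 were not called. With 8 genes this is a description.

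The genes whose course over the 18 arrays was most like that of the 3 widest-ranging members were taken from 15549 candidates. They were Cdk10, Gmppa and Lmf2 for E2f4 (Pearson r = 0.974, 0.974 and 0.973), Fam168a, N4bp1 and Mbnl1 for E2f3 (0.932, 0.932 and 0.91), and Ago1, Add3 and Wdr33 for E2f7 (0.984, 0.98 and 0.98). None belongs to the pathway lists described next, and the arrays behind each r share the 6 groups.

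Part of the genes on which the family acts fell at 7 day in each line. In these comparisons 9.13% of all genes were called lower in USFKD and 16.3% in Control cells. Of 27 measured G1/S target genes of E2F, mostly replication factors, 14 fell in USFKD and 15 in Control cells and 0 rose, with medians of -0.61 and -0.83. Rrm2, a subunit of the enzyme that makes deoxynucleotides, differed by -1.72 in USFKD and by -2.53 in Control cells, and Mcm5, part of the replicative helicase, by -1.43 and by -1.73. Pole2, a subunit of DNA polymerase epsilon, averaged 10.12 in USFKD and 9.63 in Control cells at 7 day, against 10.59 and 11.14 untreated. It was the only gene of that list called for a difference in response between the lines (1.05 ± 0.19, limma adjusted p = 0.0105), beside 5.56% of all genes. Mcm6, another subunit of the helicase, differed by 0.42 in both lines, under the fold threshold. Of 23 G2/M target genes of DREAM, 12 fell in USFKD and 13 in Control cells and 0 rose, with medians of -0.59 and -0.71. Plk1, a mitotic kinase, differed by -1.33 in USFKD and by -2.21 in Control cells, and Mki67, the proliferation marker, by -1.82 and by -1.63. At 24 hr against untreated only Tk1 (0.71) and Mki67 (1.13) of these lists were called, both higher, in Control cells, beside 3.16% of all genes called in either direction.

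**Figure D4:**
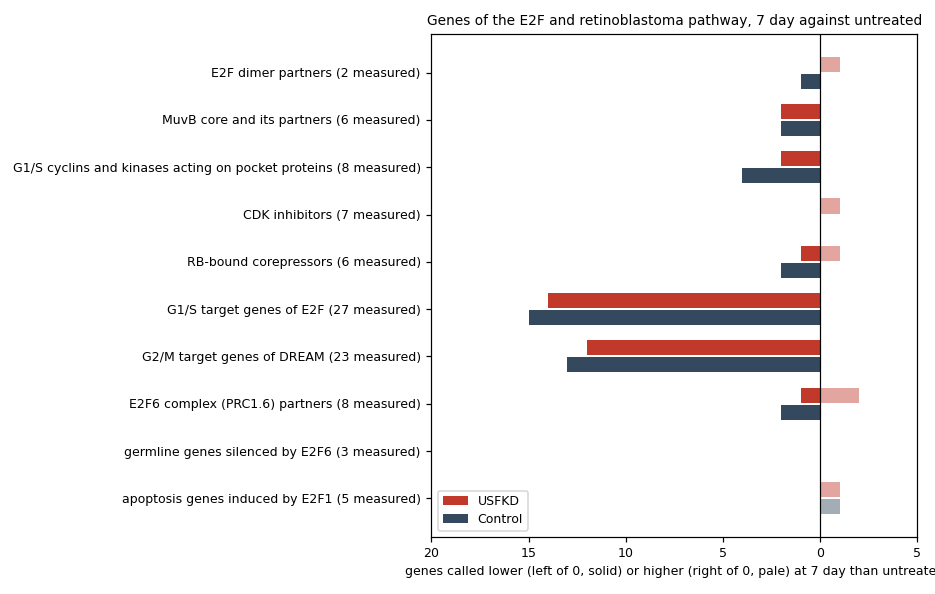
Number of genes of each pathway list called lower (solid, left of 0) or higher (pale, right of 0) at 7 day against untreated, in USFKD (red) and Control cells (blue). The G1/S targets of E2F (14 in USFKD and 15 in Control, of 27) and the G2/M targets of DREAM (12 and 13, of 23) have the most calls, and theirs are all lower.

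The partners and regulators of the family moved less evenly. The shares of all genes called lower were those given for the targets, and 9.83% in USFKD and 15.2% in Control cells were called higher. Of 8 measured cyclins and kinases that act on pocket proteins, 2 fell in USFKD cells (Cdk2 at -0.68 and Cdk4 at -0.99) and 4 in Control cells (Ccne1 at -1.06, Ccne2 at -0.72, Cdk4 at -1.14 and Cdk6 at -0.74). Ccne2, an E-type cyclin that activates CDK2, averaged 9.36, 9.33 and 9.54 in USFKD cells untreated, at 24 hr and at 7 day, against 8.96, 9.11 and 8.24 in Control cells. It was the list's 1 gene called for a difference in response at 7 day (0.90 ± 0.13, limma adjusted p = 0.00313), beside 5.56% of all genes. For Ccne2, USFKD exceeded Control by 1.30 at that time. Of 7 inhibitors of these kinases, Cdkn1b (p27) was higher in USFKD than in Control cells at every time, by 1.6 untreated, 1.58 at 24 hr and 1.89 at 7 day. Cdkn2c was called lower in untreated USFKD (8.53) than in untreated Control cells (9.18). Against untreated, Cdkn1b rose by 0.72 in USFKD cells at 7 day, and 0 of the 7 were called in Control cells. Cdkn1b averaged 7.03 untreated and 7.46 at 7 day in Control cells. The test of a difference in response at 7 day called 0 of the 7, beside 5.56% of all genes.

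Of the DP partners, Tfdp2 rose by 0.85 in USFKD cells at 7 day, and Tfdp1 fell by 0.62 in Control cells. Under the fold threshold, Tfdp2 also differed by 0.45 in Control (limma, adjusted p = 0.00489) and Tfdp1 by -0.54 in USFKD cells (limma, adjusted p = 0.00476). Neither passed the test of a difference in response, at 0.40 for Tfdp2 (limma, adjusted p = 0.187) and 0.08 for Tfdp1 (limma, adjusted p = 0.869). Among 6 measured genes of the MuvB core and its partners, Mybl2 (B-Myb) fell in both lines (-1.80 in USFKD and -2.25 in Control cells), with Lin37 (-0.70) in USFKD and Mybl1 (-0.89) in Control cells. Lin37 differed by -0.53 in Control cells (limma, adjusted p = 0.0595), and its responses differed by -0.17 (limma, adjusted p = 0.828). Mybl1 was already lower in untreated USFKD than in untreated Control cells (-0.73, limma adjusted p = 0.0376). Its responses differed by 1.08, which did not pass (limma, adjusted p = 0.0613). Among 6 corepressors that RB1 binds, all 6 were called between the lines at 7 day, beside 7.31% of all genes called higher and 9.19% lower: Arid4a (1.27), Kdm5a (0.99), Smarca2 (0.72) and Hdac1 (0.69) were higher in USFKD than in Control cells, and Smarca4 (-0.73) and Hdac2 (-0.71) were lower. Between untreated lines 2 of these 6 were already called higher and 2 lower, beside 2024 of 15559 genes called in either direction. At 24 hr it was again 2 higher and 2 lower, beside 10.3%. The test of a difference in response at 7 day called 0 of the 6, beside 5.56%. Of 8 partners of E2F6, L3mbtl2 fell in both lines (-1.03 in USFKD and -1.33 in Control cells), Rnf2 (0.85) and Yaf2 (0.77) rose in USFKD cells, and Max (-0.89) fell in Control cells, with a response that differed between the lines by 0.64 (limma, adjusted p = 0.0159). Max was the 1 gene of the 8 called for a difference in response, beside 5.56% of all genes. Rnf2 averaged 10.37 untreated and 10.88 at 7 day in Control cells. Yaf2 averaged 7.85 untreated and 8.62 at 7 day in USFKD cells, against 8.86 and 9.04 in Control cells. None of 3 germline genes that E2F6 silences lay above the dim limit or was called. Of 5 apoptosis genes that E2F1 can induce, Bcl2l11 (BIM) alone was called at 7 day, higher by 1.68 in USFKD and by 1.69 in Control cells.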

How the data were processed

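RNA of 18 samples in 6 groups of 3 was measured on Affymetrix Mouse Transcriptome 1.0 arrays. The authors deposited log2 values, summarised by RMA, a procedure of background adjustment, quantile normalization and log transformation, and the submitters' notes name Affymetrix Expression Console without a version. In 1339 of 72688 rows a value exceeds 16, the most a 16-bit scanner returns, so the exact path to the values is unknown. Of 65956 transcript clusters, 30638 carry 1 symbol (22596 matched to RefSeq GRCm38.p6 by Entrez ID and 7710 by symbol), which gave 30176 genes by the brightest cluster.

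With limma 3.58.1 (R 4.3.3) 1 mean per group was fitted to all rows, control rows included, with 12 residual and 2.65 prior degrees of freedom, for 12 contrasts, each adjusted by Benjamini-Hochberg. The number of arrays limits the precision. The fit was tested on simulated data. The named genes are the 10 family genes, Usf1 and Usf2, genes of the pathway lists, and the 3 genes most like each of the 3 widest-ranging family genes. The plan for each list was up to 3 called genes with the largest difference in a comparison. Not every gene under that plan is named, Cenpe for example. Other list genes, the uncalled Mcm6 among them, were named after their values were seen. The family and the lists were chosen with earlier results of these data known. Alternatives were other normalizations and centring, a dim filter, array weights, other variance moderation, a fit of the compared arrays alone, adjustment across contrasts, mean of all rows, a replicate block, each array left out, and, chosen after seeing the data, no fold threshold.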

Additional observations from a re-analysis of the deposited data

Results flagged for a closer look

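The difference between the lines in the response of E2f3 at 7 day, 0.73 on its second, dimmer row, passed the test of the difference itself (limma, adjusted p = 0.00883), while the brighter row, at 0.85, did not (limma, adjusted p = 0.108).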

How the results depend on the processing

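Of 19 calls of family genes, 14 held under all 30 alternatives that change the fit, and none of the 19 changed direction. The 5 that were lost somewhere were Rb1 between untreated lines and at 7 day in Control cells (mean of all rows), E2f3 between the lines at 7 day (compared arrays alone), E2f2 at 7 day in Control cells (centring, or without Control 7 day replicate 2) and Rbl1 in that comparison (centring). Among counts of called family genes, quantile normalization gave 5 in place of 2 at 7 day against untreated USFKD cells, beside 3415 in place of 2951 of all genes. The compared arrays alone gave 1 in place of 2 between the lines at 7 day, beside 1535 in place of 2568. The mean of all rows gave 0 in place of 1 between untreated lines and 1 in place of 0 (E2f3) for the difference in response at 7 day. With no fold threshold, an alternative chosen after seeing the data, the counts were 1 between the lines at 24 hr, 4 between them at 7 day, 7 at 7 day against untreated and 5 at 7 day against 24 hr in USFKD cells. The share of all genes at that looser threshold is not given here, so these counts cannot be set beside the shares above. Leaving out 1 array at a time gave 0 to 1 between the lines at 24 hr, 2 to 3 at 7 day, 2 to 3 at 7 day against untreated USFKD cells, 6 to 7 in Control cells and 0 to 1 for the difference in response at 7 day. With the replicate number as a block, the 12 counts of family genes were those without it, 7 at 7 day against untreated Control cells among them. The numbers were not taken to pair the samples. After the group means were removed, 45 correlations of same-numbered arrays lay between -0.252 and 0.246, with 5 over 0.1. These 5 were 0.213, 0.112 and 0.105 between Control untreated and Control 24 hr, and 0.246 and 0.216 between USFKD 24 hr and Control 24 hr. Arrays of different numbers were not compared, so these values cannot decide whether the samples were paired.

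Counts of called genes above the dim limit are given only for comparisons where an alternative that changes the fit altered the count by over 1.5 times, or from 0. Between the lines at 7 day 2568 were called, and 1535 with the compared arrays alone. At 24 hr against untreated 0 were called in USFKD cells and up to 189 (adjustment across contrasts), and 492 in Control cells, with 101 without Control 24 hr replicate 1 and 907 with array weights. At 7 day against 24 hr in USFKD cells it was 2663, and 1707 with the compared arrays alone. The difference in response gave 0 at 24 hr and up to 132 (adjustment across contrasts), 865 at 7 day and 401 without Control untreated replicate 2, and for the change between 24 hr and 7 day 118, with a range of 3 to 552 and 73 with the replicate block. The share of called genes that were higher moved by over 10 percentage points with the scale. It was 34.6% between untreated lines and 45.6% after centring. At 24 hr against untreated Control cells it was 70.3%, and 39.6% after quantile normalization. At 7 day against 24 hr it was 36.5% in USFKD cells and 59% after centring, and 50% in Control cells, 35.5% after quantile normalization and 65.5% after centring. Cyclic loess gave, at 7 day against untreated, 36.8% in USFKD and 37.9% in Control cells. For the difference in response at 7 day it was 68.7%, and 46.9% after centring, and for the change between 24 hr and 7 day 68.6%, and 78.7% after quantile normalization.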
